A study of Homo sapiens with 104 samples.

Results

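The NRF2 pathway genes described here are 9 genes of the response to oxidants: NQO1, HMOX1, GCLC, GCLM, TXNRD1, SRXN1, TXN, PRDX1 and NFE2L2, out of 19775 genes that had a probe set with a single gene symbol in the platform annotation. They were taken by name, through 19 probe sets with the single symbol of a member. The probe set with the highest mean over all arrays stood for each gene. All 9 passed the filter that left out the dimmest 30% of genes and kept 13842. Transcript levels were measured with Affymetrix arrays in 26 human lymphoblastoid lines grown to mid log phase: MT1, TK6 and a panel of 24 numbered lines. The study examined how lines differ in expression and in their killing by an alkylating agent. MT1 is known as a mismatch repair deficient derivative of TK6, and both of these lines are known to lack the repair protein MGMT. Every line was measured after MNNG, a methylating agent, and untreated, with 2 arrays for each. Neither the dose nor the length of exposure is given in the sources used here.

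NRF2, the product of NFE2L2, is a transcription factor that is held down in unstressed cells by KEAP1, an adaptor that hands it to the CUL3 ubiquitin ligase for degradation. Oxidants and electrophiles disable KEAP1, and NRF2 then binds antioxidant response elements together with small Maf proteins. Its activity is set largely at the protein level, so the NFE2L2 transcript is only a partial guide to it. NQO1 reduces quinones, and HMOX1 splits heme into biliverdin, iron and carbon monoxide. GCLC and GCLM are the catalytic and modifier subunits of the enzyme that limits glutathione synthesis. TXNRD1 reduces thioredoxin (TXN), which in turn reduces peroxiredoxins such as PRDX1, and SRXN1 repairs peroxiredoxins that have been overoxidised.

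Of the 52 MNNG arrays, 22 were set aside: 21 of panel lines and 1 of MT1. On these the 5′ cre spike-in probe set lay 5.19 to 6.45 log2 units below its partner, whereas on the 82 kept arrays it lay 0.082 to 0.83 above. The set-aside arrays also stood apart in some of the genes described here. Median deposited intensity of TXN was 86.2 on them, against 3362 on the kept MNNG arrays, that of NFE2L2 was 31.9 against 483, and that of GCLC 19.5 against 117. GCLM was at 232 against 213. The kept arrays covered 19 panel lines with MNNG, 8 of them with 2 MNNG arrays and 11 with 1, and all lines untreated. Duplicate arrays correlated at 0.959 to 0.997 over 35 pairs. Of the B cell markers, 9 of 9 on the array had median levels above 6, and 6 of 8 T and NK cell markers lay below 6. On single arrays BLK was as low as 5.27 and MS4A1 as low as 6.37. Also below 6 were 5 of 8 myeloid markers, 5 of 8 markers of fibroblasts and epithelia and 1 of 2 erythroid ones. The highest medians in these lists were 7.65 (CD163), 7.56 (KRT8) and 7.83 (HBB). For B cell markers the log2 of the summed normalised intensities spanned 13.71 to 14.71 with MNNG and 13.68 to 14.88 untreated. For T and NK cell markers it spanned 8.13 to 9.47 with MNNG and 8.02 to 9.70 untreated. Array precision is limited by the number of arrays, and nothing in the labels says that duplicates were separate cultures, so the spread between duplicates, and the p-values built on it, may be technical.

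The promoters of GCLM and TXNRD1 are shown because the levels of these genes moved together across untreated lines, as given further on, and because their windows hold the core of the antioxidant response element. RefSeq promoter windows of 300 bases (250 before the gene start and 50 after it, GRCh38.p14) matched 7 of the 9 genes, through 9 windows. HMOX1 and PRDX1 had no window. The motif searched was TGACNNNGC on both strands, and capitals mark each match.
GCLM (chr1:93909381-93909680, minus strand): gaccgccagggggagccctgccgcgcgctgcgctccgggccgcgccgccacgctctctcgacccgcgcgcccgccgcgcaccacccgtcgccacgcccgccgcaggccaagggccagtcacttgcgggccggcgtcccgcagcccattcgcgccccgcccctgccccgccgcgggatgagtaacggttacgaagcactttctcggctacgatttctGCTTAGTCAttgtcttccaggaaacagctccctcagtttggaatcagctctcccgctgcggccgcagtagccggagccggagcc
TXNRD1, upstream start (chr12:104215529-104215828, plus strand): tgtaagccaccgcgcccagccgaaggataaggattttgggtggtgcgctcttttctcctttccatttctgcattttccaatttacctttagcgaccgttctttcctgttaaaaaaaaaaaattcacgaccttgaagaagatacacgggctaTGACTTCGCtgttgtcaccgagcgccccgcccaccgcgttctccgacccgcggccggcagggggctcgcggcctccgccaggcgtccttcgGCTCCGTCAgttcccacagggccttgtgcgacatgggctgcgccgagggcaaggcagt
TXNRD1, downstream start (chr12:104286782-104287081, plus strand): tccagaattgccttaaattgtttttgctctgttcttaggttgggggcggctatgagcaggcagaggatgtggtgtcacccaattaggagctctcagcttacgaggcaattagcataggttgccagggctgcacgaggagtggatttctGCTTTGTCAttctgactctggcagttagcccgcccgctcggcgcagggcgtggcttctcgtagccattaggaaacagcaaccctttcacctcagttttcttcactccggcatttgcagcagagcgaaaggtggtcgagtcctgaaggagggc
GCLM held 1 match, on the opposite strand, beginning 34 bases before the gene start. The upstream TXNRD1 window held 2 matches, beginning 99 and 8 bases before the start, and the downstream window held 1, beginning 102 bases before it. So 3 of the 9 windows, belonging to 2 genes, held the motif, against 13.3% of the 35116 windows of all genes. The related sequence TGANTCA, which can overlap it, was in 0 of the 9 windows and in 7.71% of all. These matches describe the letters of the windows and not binding.

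Untreated levels of the NRF2 pathway genes differed widely between MT1 and TK6 on the one side and the panel on the other. In 6 of the 9 genes (NQO1, HMOX1, GCLM, TXNRD1, SRXN1 and TXN) MT1 and TK6 both lay above every one of the 24 panel lines. This position was held by 9.87% of all 13842 genes. The count of 6 was the same on values as deposited and on median-centred values, where 6.45% and 12.1% of all genes lay so; these 2 scalings were added after the data were seen. MT1 and TK6 share an origin and do not count as independent lines. No test was made of this position, which compares 2 lines with 24.

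NQO1 stood out most. Its level, as log2 of intensity plus 16 after quantile normalisation, was 9.78 and 10.20 on the untreated MT1 arrays and 10.69 and 11.01 on the untreated TK6 arrays, whereas the panel lines spanned 6.95 to 8.51 with a median of 7.70. On this scale the MT1 mean was 4.89-fold and the TK6 mean 8.86-fold the panel median. HMOX1 was at 8.26 and 8.66 in MT1 and 8.23 and 8.27 in TK6, against 5.83 to 7.88 in the panel with a median of 6.66. The margin over the highest panel line was thus narrower for HMOX1, at 0.58 in MT1 and 0.37 in TK6, than for NQO1, at 1.48 in MT1 and 2.34 in TK6. As these are bulk samples, fewer cells with a transcript and less transcript per cell cannot be told apart.

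Of the glutathione synthesis pair, the modifier subunit followed the same pattern and the catalytic subunit did not. GCLM levels were 9.35 and 9.65 in untreated MT1 and 9.02 and 9.12 in untreated TK6, above the panel's 7.11 to 8.30. GCLC was at 5.88 and 6.04 in MT1 and at 7.44 and 7.59 in TK6, against 6.62 to 7.79 in the panel. MT1 therefore lay below all 24 lines for GCLC, a position shared by 16.4% of all genes, while TK6 lay above 21 of the 24 lines. A probe set at the intensity floor of 16 has a level of 5 before normalisation, and its level can differ after it. The deposited GCLC intensities in untreated MT1 were 42.2 and 29.4, above that floor.

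The thioredoxin genes were less spread. TXNRD1 was at 10.47 and 10.27 in MT1 and at 10.29 and 10.24 in TK6, against 8.95 to 9.58 in the panel. SRXN1 levels were 8.55 and 8.28 in MT1 and 8.32 and 8.17 in TK6, with the panel between 6.62 and 7.68. TXN exceeded the highest panel line by 0.28 in MT1 and 0.14 in TK6. PRDX1 lay inside the panel range, with 19 lines below MT1 and 1 line below TK6. NFE2L2 itself also lay inside it, with 4 lines below MT1 and 18 lines below TK6. The transcript of the factor was therefore within the panel's range in lines where 6 of its 8 companions here were above that range.

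**Figure D1:**
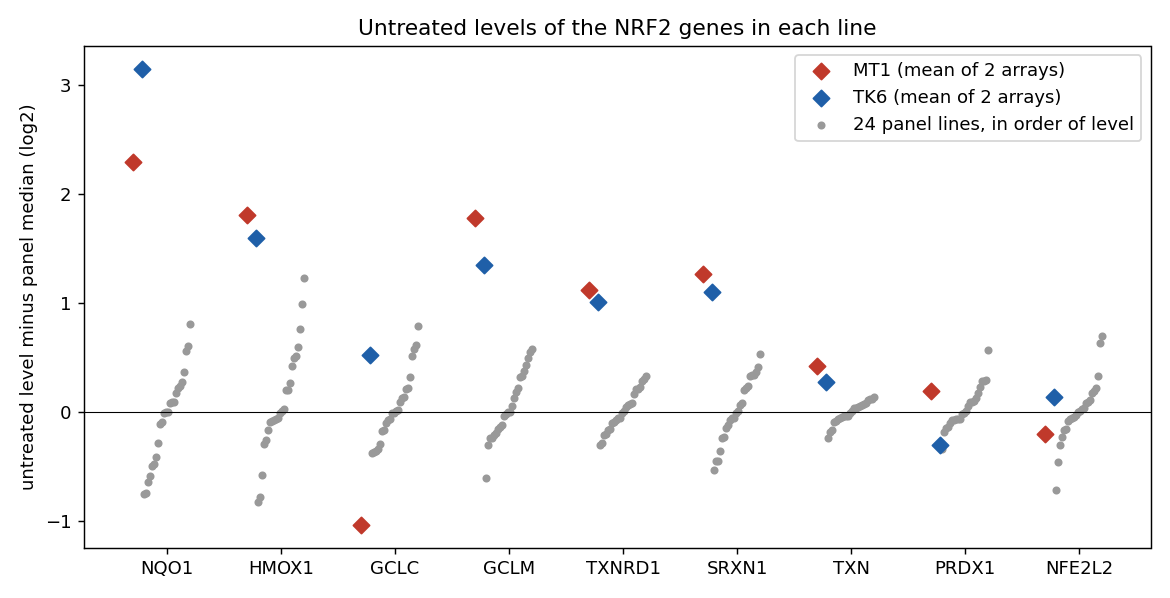
Untreated level of each NRF2 pathway gene (log2) minus the median of the 24 panel lines, with MT1 and TK6 as diamonds (means of 2 arrays) and panel lines as grey points in order of level. MT1 and TK6 lie above all grey points for NQO1, HMOX1, GCLM, TXNRD1, SRXN1 and TXN, and MT1 lies below all of them for GCLC.

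Between untreated MT1 and TK6 themselves, 5 of the 9 genes passed an adjusted p of 0.05, which is what called means throughout, 2 higher and 3 lower in MT1, where 25.2% of all genes were called (limma, Benjamini-Hochberg over 13842 genes). GCLC showed the greatest difference of the 9, at -1.56 ± 0.13 (log2, SE, adjusted p = 1.25e-12), or 2.94-fold lower in MT1. NQO1 was lower in MT1, at -0.86 ± 0.14 (adjusted p = 7.85e-06) and so was NFE2L2, at -0.34 ± 0.12 (adjusted p = 0.0426). PRDX1 was higher in MT1 by 0.50 ± 0.11 and GCLM by 0.43 ± 0.10. For all of these the 2 arrays of MT1 lay apart from the 2 of TK6. The genes were called on these same arrays, so this adds no separate support. The median difference of the 9 genes was 0.14, against 0.012 for all genes. The NFE2L2 call did not hold with no filter on dim genes (adjusted p = 0.0552) or on values as deposited (adjusted p = 0.252). It was also lost without the first or the second untreated MT1 array (-0.37 and -0.30) or the first untreated TK6 array (-0.22), and with each gene's probe sets averaged (-0.16, adjusted p = 0.308). The GCLM call was lost without the second untreated MT1 array (0.28, adjusted p = 0.0891), on values as deposited (adjusted p = 0.106), on median-centred values (adjusted p = 0.181) and in a model of only the TK6 and MT1 arrays (adjusted p = 0.0655). The PRDX1 call was lost on median-centred values (adjusted p = 0.139).

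Within the panel, untreated levels differed between the 24 lines for 9 of 9 genes by limma's F test over single arrays, as they did for 64.3% of all genes. HMOX1 had the widest range of line means, 2.05 log2 units, with line 14 lowest at 5.83 and line 20 highest at 7.88. NQO1 ranged over 1.56, lowest in line 19 at 6.95 and highest in line 15 at 8.51. NFE2L2 ranged over 1.41, lowest in line 16 at 8.35 and highest in line 14 at 9.76. TXN had the narrowest range of the 9, 0.38, and its call was lost on median-centred values (adjusted p = 0.0645) and with its probe sets averaged (adjusted p = 0.424). The SRXN1 call was lost on values as deposited (adjusted p = 0.101). Most neighbours in the order of lines could not be told apart: of the 23 gaps between neighbouring lines, 7 exceeded the SD between duplicates for HMOX1, 3 for NQO1, SRXN1 and NFE2L2, 2 for GCLC, GCLM and PRDX1, and 0 for TXNRD1 and TXN.

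Several of the target genes varied together across the 24 untreated lines. Pearson's r was 0.69 for GCLC with GCLM, 0.70 for TXNRD1 with SRXN1, 0.66 for GCLC with TXNRD1, 0.66 for GCLM with TXNRD1 and 0.54 for NQO1 with TXNRD1. NFE2L2 had r values of -0.027 to 0.18 with GCLC, GCLM, TXNRD1 and SRXN1. These values describe lines whose genes were read on the same arrays, and no p is given. The untreated array median before normalisation, averaged per line, had an r of -0.64 with TXNRD1, -0.60 with SRXN1, -0.58 with GCLM and -0.45 with GCLC. Its part in the shared pattern was not tested. Across the 19 lines with both conditions, changes with MNNG had an r of 0.47 for TXNRD1 with SRXN1 and 0.21 for GCLC with GCLM.

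**Figure D2:**
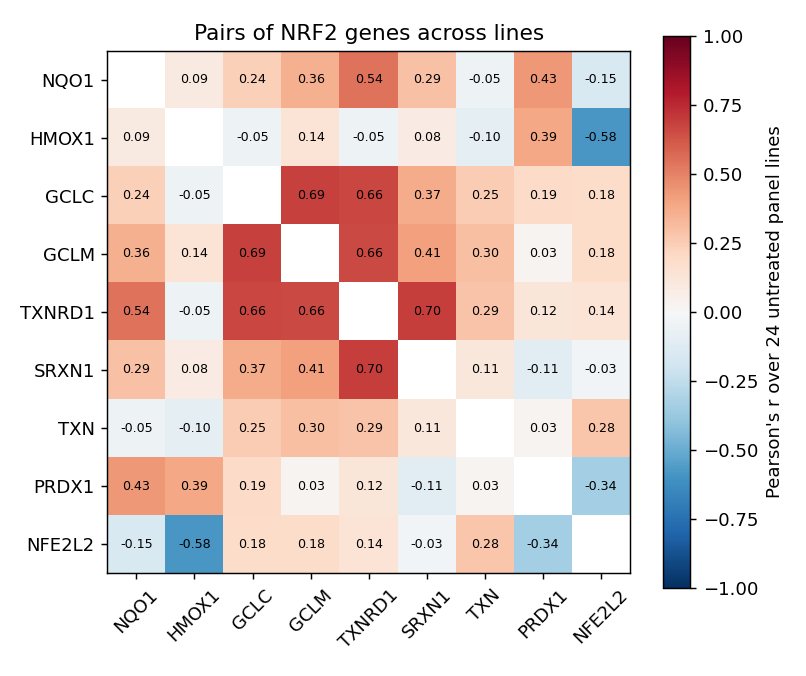
Pearson's r between untreated line means of each pair of NRF2 pathway genes over the 24 panel lines, red for positive and blue for negative. GCLC, GCLM, TXNRD1 and SRXN1 have positive values among themselves, and HMOX1 with NFE2L2 has the most negative value, -0.58.

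The NFE2L2 level was set against each of the 8 other genes over the 24 untreated lines, in 8 relations, and 1 passed. HMOX1 was lower in lines with more NFE2L2, with r = -0.58 (permutation p = 0.00285, adjusted 0.0228) and Spearman's rho = -0.72 (permutation p = 0.00016, adjusted 0.00128), both two-sided. Line 14, for example, had the highest NFE2L2 level and the lowest HMOX1 level, and line 16, lowest for NFE2L2, had an HMOX1 level of 7.25, exceeded in 3 lines. On 1 of the 2 untreated arrays of line 14 the HMOX1 intensity was 16.0, at the floor. These 2 lines are the farthest from the median NFE2L2 level. Without them r was -0.46 (permutation p = 0.0317, adjusted 0.254), which no longer passed, and rho was -0.65 (adjusted permutation p = 0.00848). On values as deposited r was -0.46 (adjusted permutation p = 0.203), and with each gene's probe sets averaged it was also -0.46 (adjusted permutation p = 0.200). The ratio of 3′ to 5′ beta-actin signal, a measure of RNA integrity, had an r of 0.47 with NFE2L2 and -0.41 with HMOX1 over the 24 untreated lines. Its r was -0.72 with PRDX1, -0.39 with NQO1 and between -0.13 and 0.14 with the remaining genes. The part of this ratio in the untreated levels and relations was not tested.

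**Figure D3:**
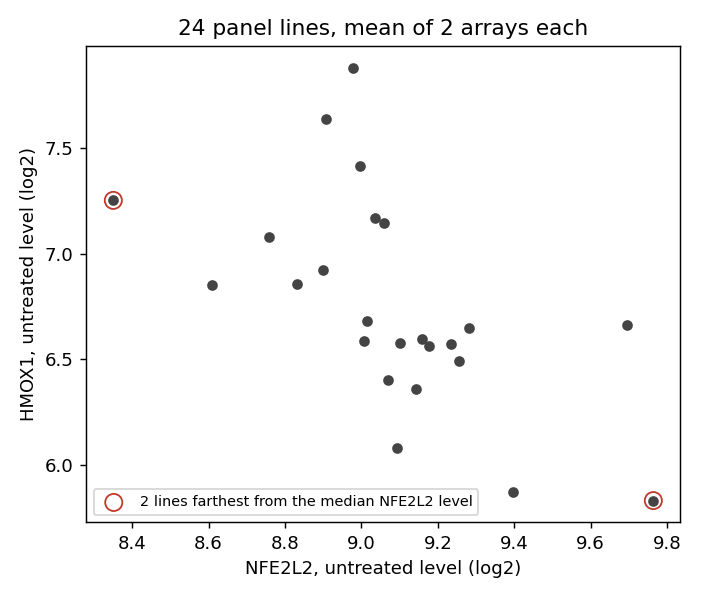
Untreated HMOX1 level against untreated NFE2L2 level (both log2) in the 24 panel lines, each point a mean of 2 arrays, with the 2 lines farthest from the median NFE2L2 level ringed. Points run from high HMOX1 at low NFE2L2 to low HMOX1 at high NFE2L2, with r = -0.58.

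Values of r with NFE2L2 for the remaining 7 genes ran from -0.34 (PRDX1) to 0.28 (TXN), and none of these 7 passed by either coefficient. With arrays centred on their medians instead, 5 relations passed: HMOX1 at -0.51, and GCLC, GCLM, TXNRD1 and TXN at 0.44, 0.54, 0.57 and 0.63. On untreated panel arrays the medians of deposited intensity ran from 16.0, at the floor, to 54.5. Centring shifts all genes of an array by a common amount, and its part in these relations was not tested. The genes whose untreated pattern over the 24 lines was most like a member's, out of 13841 others, were SAT1, MASTL and ZDHHC17 for NFE2L2 (r of 0.88, 0.87 and 0.85), HSPBP1, EMC4 and PPIH for GCLM (0.86, 0.84 and 0.84) and MCM6, PTGES3 and HMGB1 for GCLC (0.83, 0.79 and 0.79). For NQO1 they were TIMMDC1, APEH and ESYT1 (0.80, 0.78 and 0.74), and for HMOX1 CLPTM1L, SNHG19 and ELFN1-AS1 (0.78, 0.76 and 0.75). CCNF, NSMCE4A and THOC6 were nearest to TXNRD1 (0.81, 0.80 and 0.80), and PDZRN3, SAP30L and PTPRCAP to SRXN1 (0.76, 0.75 and 0.75). SLC25A11, LSM14B and CD74 were nearest to PRDX1 (0.75, 0.73 and 0.73), and D2HGDH, STS and PUDP to TXN (0.70, 0.69 and 0.68).

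In TK6, MNNG was followed by lower levels of 4 of the 9 genes and a higher level of 1, where 41.2% of all genes were called (19.5% lower and 21.6% higher). NQO1 was at 9.31 and 9.29 on the MNNG arrays, against 10.69 and 11.01 untreated. This is a change of -1.55 ± 0.14 (SE, adjusted p = 6.05e-12, limma), or 2.92-fold. HMOX1 was at 6.97 and 6.76 with MNNG, against 8.23 and 8.27 untreated, a change of -1.38 ± 0.15 (adjusted p = 2.17e-10, limma). For both genes the MNNG arrays lay well below the untreated ones. After MNNG, HMOX1 in TK6 was inside the range of untreated panel lines, and NQO1 was still above it.

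TXNRD1 and SRXN1, which keep thioredoxin and the peroxiredoxins reduced, fell by less. TXNRD1 had levels of 9.79 and 9.82 with MNNG, against 10.29 and 10.24 untreated, and its change was -0.46 ± 0.089. SRXN1 had levels of 7.75 and 7.71 with MNNG, against 8.32 and 8.17 untreated, and its change was -0.52 ± 0.10, which was not called on values as deposited (-0.46, adjusted p = 0.166). PRDX1, the peroxidase, went the other way. It was at 12.45 and 12.52 with MNNG, against 11.71 and 11.54 untreated, a rise of 0.86 ± 0.11 (adjusted p = 2.45e-08, limma). Not called in TK6 were GCLC (-0.021), GCLM (0.14), TXN (-0.14) and NFE2L2 (0.29 ± 0.12, adjusted p = 0.0632). The NFE2L2 arrays did not overlap, at 9.52 and 9.45 with MNNG against 9.32 and 9.08 untreated, and without the first untreated TK6 array the change was 0.41 (adjusted p = 0.0313). The median change of the 9 genes was -0.14, against -0.029 for all genes. With all arrays in the model, whose shared spread then includes the set-aside arrays, 0 of 9 were called in TK6, with NQO1 at -1.56 (adjusted p = 0.164) and HMOX1 at -1.32 (adjusted p = 0.0531), and 3.35% of all genes were called.

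In MT1, where 1 MNNG array remained and was assumed to vary like the other groups, 2 of the 9 genes were called, both lower, where 3.56% of all genes were called (1.21% lower and 2.36% higher). HMOX1 was at 7.51 with MNNG, against 8.26 and 8.66 untreated, a change of -0.95 ± 0.18 (adjusted p = 0.00124, limma). TXNRD1 was at 9.85 with MNNG, against 10.47 and 10.27 untreated, a change of -0.52 ± 0.11 (adjusted p = 0.00384, limma). The treated array lay below both untreated ones in each case. Without the first untreated MT1 array the TXNRD1 change was -0.42 (adjusted p = 0.0719), which left 1 call, and both calls were lost on values as deposited (adjusted p = 0.401 for HMOX1 and 0.232 for TXNRD1) and in a model of only the TK6 and MT1 arrays (0.240 and 0.248). NQO1 was at 9.82 with MNNG, between 9.78 and 10.20 on the untreated arrays, with a change of -0.17 ± 0.18. PRDX1 was at 12.13 with MNNG, also between the untreated 12.21 and 12.04.

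The response in MT1 differed from that in TK6 for 2 of the 9 genes, where 24.7% of all genes differed. For NQO1 the MT1 change minus the TK6 change was 1.38 ± 0.23 (adjusted p = 7.49e-06, limma), and for PRDX1 it was -0.85 ± 0.18 (adjusted p = 0.000252, limma). The fall of NQO1 and the rise of PRDX1 seen in TK6 were thus smaller in MT1. HMOX1 fell in both lines, and its difference of 0.43 ± 0.23 was not past the threshold (adjusted p = 0.195, limma). TXNRD1 had a difference of -0.062 ± 0.14. NFE2L2 (-0.51 ± 0.20, adjusted p = 0.0517) and TXN (0.26 ± 0.10, adjusted p = 0.0545) lay just outside the threshold and passed it with a filter on the dimmest 50% of genes. NFE2L2 also passed without the first untreated TK6 array (-0.63), and TXN without the second TK6 MNNG array (0.31). Beta-actin 3′ minus 5′ was 0.57 on the MT1 MNNG array against a median of 0.29 untreated, and 0.39 against 0.26 in TK6, and its part in these changes was not tested.

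**Figure D4:**
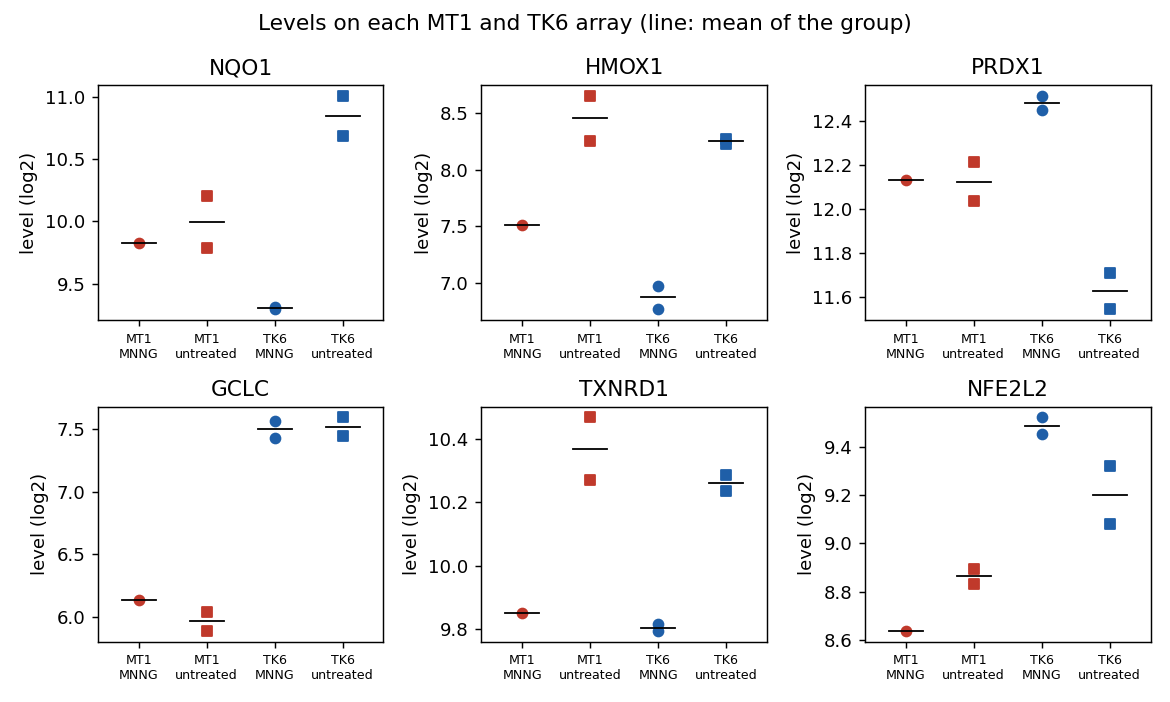
Level (log2) of 6 NRF2 pathway genes on each MT1 and TK6 array, MNNG as circles and untreated as squares, with a line at the mean of each group. NQO1, HMOX1 and TXNRD1 are lower and PRDX1 is higher on the TK6 MNNG arrays than on the untreated ones, and GCLC is low on every MT1 array.

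In the panel the changes were much smaller. Over 19 lines, 5 of the 9 genes were called, 3 higher and 2 lower with MNNG, where 42.6% of all genes were called (28.7% higher and 13.8% lower), so the count of 5 is no result about these 9 genes as a group. NQO1 rose by 0.19 ± 0.032 (adjusted p = 6.38e-05, higher in 17 of 19 lines), or 1.14-fold. Line means of NQO1 ran from 7.29 through a median of 7.71 to 8.74 with MNNG, against 6.95, 7.70 and 8.51 untreated in the same lines. TXN rose by 0.12 ± 0.021 (higher in 18 of 19 lines) and PRDX1 by 0.079 ± 0.022 (higher in 14 of 19). The ranges of treated and untreated lines overlapped for all 3 genes, and the calls rest on comparing each line with itself. In 11 of the 19 lines this set 1 MNNG array against the mean of 2 untreated arrays. With a replicate block, which compares arrays of the same number within a line, PRDX1 rose by 0.034. Its call was then lost (adjusted p = 0.233, limma).

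NFE2L2 fell by 0.23 ± 0.049 (adjusted p = 0.000645, lower in 15 of 19 lines). Its line means ran from 8.54 through a median of 8.86 to 9.56 with MNNG, against 8.61, 9.10 and 9.76 untreated. TXNRD1 fell by 0.080 ± 0.031 (adjusted p = 0.0382, lower in 14 of 19 lines), and its call was lost on leaving out any single one of lines 2, 4, 5, 9, 10, 18, 19, 21, 22 and 24, with changes of -0.077 to -0.069. GCLM (0.068 ± 0.029, adjusted p = 0.0607), HMOX1 (0.012 ± 0.036), SRXN1 (-0.015 ± 0.031) and GCLC (-0.030 ± 0.038) were not called. The median change of the 9 genes was 0.012, against 0.037 for all genes.

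Beta-actin 3′ minus 5′ moved with treatment in the panel. Its median was 0.28 on MNNG arrays against 0.050 on untreated ones, and it was higher with MNNG in 18 of 19 lines. With it as a covariate, an alternative added after the data were seen, 1 of the 9 genes was called, NQO1, as were 2.77% of all genes. NFE2L2 then had a change of -0.36 (adjusted p = 0.0547). With all arrays 6 of the 9 genes were called, where 70% of all genes were, and the direction turned for GCLC (0.57), TXNRD1 (0.17), TXN (-1.34) and PRDX1 (-0.45). Centred on array medians, NQO1 was at 0.068 (adjusted p = 0.375), TXN at -0.040 and PRDX1 at -0.11, and these 3 calls were lost. The NQO1 call was also lost with no line block (adjusted p = 0.441) and without the first replicates (0.16, adjusted p = 0.155). Without the first replicates, TXN alone was called, where 8.58% of all genes were, and NFE2L2 was at -0.083 (adjusted p = 0.545). PRDX1 was at 0.010 without the second replicates (adjusted p = 0.806).

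**Figure D5:**
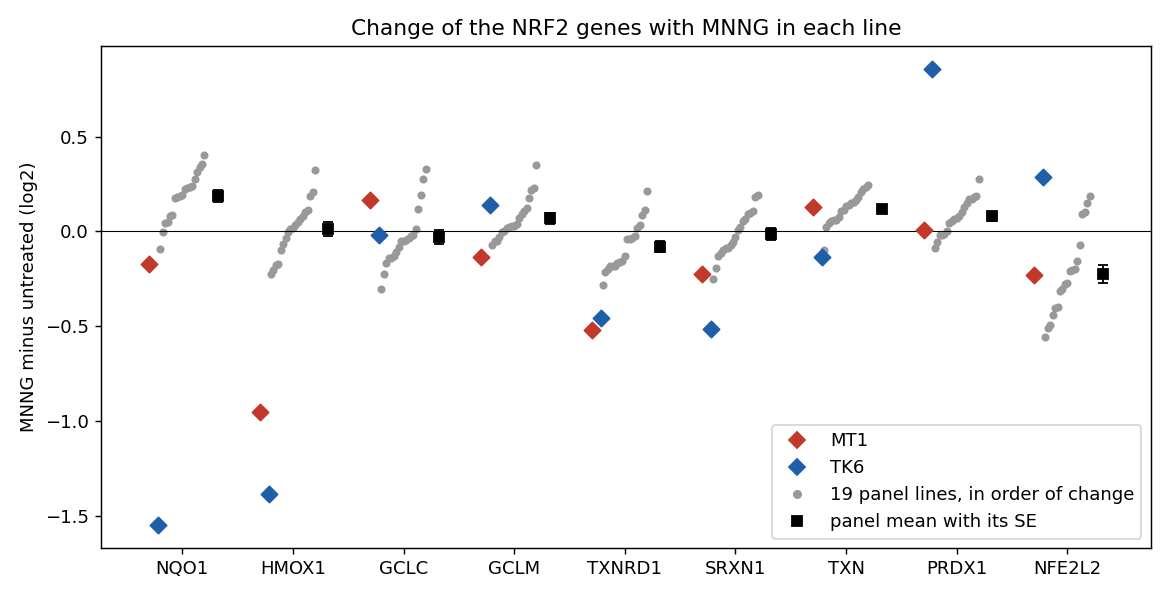
Change with MNNG (MNNG minus untreated, log2) of each NRF2 pathway gene in MT1, TK6 and the 19 panel lines (grey, in order of change), with the panel mean and its SE as a black square. TK6 lies far below the panel for NQO1 and HMOX1 and above it for PRDX1, and panel lines lie between -0.56 and 0.40.

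The TK6 changes of 7 of the 9 genes lay outside the range of the 19 panel lines. NQO1, HMOX1, TXNRD1, SRXN1 and TXN lay below the lowest line, a position held by 23.7% of all genes. PRDX1 and NFE2L2 lay above the highest line, as 20.2% of all genes did. For NQO1 the TK6 change was -1.55 and the panel's ran from -0.092 to 0.40. For PRDX1 the TK6 change was 0.86 and the panel's ran from -0.085 to 0.27. In MT1, NQO1, HMOX1, GCLM and TXNRD1 lay below every panel line, as 5.45% of all genes did, and 0 of the 9 lay above, as 5.29% of all genes did. These positions are descriptions, and the difference between TK6 or MT1 and the panel was not tested. MT1 had 1 MNNG array. For NQO1 and GCLM its levels, 9.82 and 9.37, lay between those of the untreated MT1 arrays.

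Differences between panel lines in the response were not detected for these genes. By limma's F test, 0 of 9 were called, where 6.75% of all genes were called. NFE2L2 came nearest, with changes from -0.56 in line 24 to 0.19 in line 4 (adjusted p = 0.0754), followed by TXNRD1 (adjusted p = 0.123). Leaving out line 15 or line 23 brought NFE2L2 past the threshold, with adjusted p of 0.0487 and 0.0358. It also passed with a replicate block (range of 0.82, adjusted p = 0.0168) and on median-centred values (range of 1.99, adjusted p = 0.0300). The lowest array medians in the panel were at the floor of 16, and their part in the median-centred range was not tested.

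Other genes of the pathway were followed in 7 lists with 118 entries, 99 of which were tested: NRF2 control, glutathione, thioredoxin and peroxiredoxin, NADPH supply, detoxification, heme and iron, and superoxide and peroxide. In TK6, 57 of the 99 were called (57.6%, against 41.2% of all genes), 36 lower and 21 higher with MNNG, with a median change of -0.13. In MT1, 11 were called (11.1%, against 3.56% of all genes), 7 lower and 4 higher. In the panel, 45 were called (45.5%, against 42.6% of all genes), 26 higher and 19 lower. Beside the counts by direction below, 19.5% of all genes were called lower and 21.6% higher in TK6. In the panel 13.8% of all genes were called lower and 28.7% higher. The MT1 shares by direction are given above with the MT1 changes. All MT1 values below rest on 1 MNNG array. The MT1 calls among the list genes did not hold in a model of only the TK6 and MT1 arrays. No list was tested as a set.

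The genes that supply NADPH, which TXNRD1 and glutathione reductase use as the source of electrons, were lower in TK6 wherever they were called: 8 of 11 fell, 0 rose and 3 were not called. TKT changed by -1.06 ± 0.13, PGLS by -0.78 ± 0.22, TALDO1 by -0.65 ± 0.075 and NNT by -0.61 ± 0.13. The first 3 are enzymes of the pentose phosphate pathway, and NNT makes mitochondrial NADPH. In the panel 4 of 11 fell and 1 rose, with TKT at -0.35 ± 0.031 (lower in 19 of 19 lines), NNT at -0.36 ± 0.040 and RPIA at 0.18 ± 0.028. In MT1, 0 of 11 were called.

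In TK6, 11 of 25 glutathione genes fell and 4 rose. SLC3A2, the heavy chain of the cystine exchanger, changed by -1.40 ± 0.15, and CHAC1, which degrades glutathione, by -1.18 ± 0.16. GPX1, a glutathione peroxidase, rose by 1.26 ± 0.11. In MT1, 3 of 25 fell and 1 rose, among them SLC3A2 at -0.74 ± 0.18, CHAC1 at -0.84 ± 0.20 and SLC7A11, the light chain of the cystine exchanger, at -0.82 ± 0.21. The panel had 5 higher and 3 lower of 25, such as GLRX2 at 0.25 ± 0.037, GSR, glutathione reductase, at -0.15 ± 0.040 and SLC3A2 at -0.17 ± 0.040.

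Of 12 detoxification genes tested, 6 fell and 0 rose in TK6. PIR, an iron-binding nuclear protein, changed by -2.45 ± 0.10 and SLC48A1, a heme transporter, by -0.76 ± 0.10. AKR1C1, at -0.61 ± 0.17, has near-identical relatives whose signal probe sets may share. In MT1, 0 of 12 were called, and in the panel 2 rose and 2 fell, UGDH at 0.24 ± 0.039 and ALDH3A2 at -0.15 ± 0.049 having the largest change each way.

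Of the called heme and iron genes all but 1 were higher with MNNG: in TK6 5 of 9 rose and 1 fell, in MT1 3 rose and 0 fell, and in the panel 5 rose and 0 fell. TFRC, the transferrin receptor, rose by 1.41 ± 0.11 in TK6 and 0.62 ± 0.14 in MT1. BLVRA, which reduces the biliverdin that HMOX1 makes, rose by 1.40 ± 0.14 in TK6 and 0.19 ± 0.027 in the panel. UROD, an enzyme of heme synthesis, rose by 0.42 ± 0.091 in MT1 and 0.28 ± 0.033 in the panel, in 19 of 19 lines.

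Thioredoxin and peroxiredoxin genes split evenly in TK6, with 4 of 17 higher and 4 lower. All 4 with the largest change were higher: SESN1 by 2.12 ± 0.11, TXNIP, an inhibitor of thioredoxin, by 1.22 ± 0.12, SESN3 by 1.19 ± 0.16 and SESN2 by 1.17 ± 0.15. Sestrins have been reported to help regenerate peroxiredoxins, and SESN1 and SESN2 are known targets of p53. In MT1 0 of 17 were called. In the panel 6 rose and 1 fell, which was TXNIP at -0.27 ± 0.034, lower in 19 of 19 lines, while SESN2 rose by 0.26 ± 0.087.

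Genes that control NRF2 moved in both directions. In TK6 4 of 12 rose and 3 fell, with PALB2, a KEAP1-binding repair protein, at 1.59 ± 0.12, SQSTM1, which sequesters KEAP1, at 0.81 ± 0.23 and NFE2L1, a relative of NFE2L2, at -0.79 ± 0.091. In MT1 2 of 12 fell, NFE2L1 at -0.46 ± 0.11 and CUL3 at -0.39 ± 0.12, and 0 rose. The panel had 2 of 12 higher and 3 lower, with BACH1, the heme-sensing repressor of HMOX1, at -0.25 ± 0.048, CUL3 at -0.19 ± 0.031 and RBX1, the RING subunit of the same ligase, at 0.21 ± 0.028.

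Of 13 superoxide and peroxide genes, 4 rose and 3 fell in TK6, 2 fell and 0 rose in MT1, and 5 rose and 6 fell in the panel. CAT, catalase, was lower with MNNG, changing by -0.88 ± 0.069 in TK6, -0.42 ± 0.084 in MT1 and -0.19 ± 0.034 in the panel. SOD2, mitochondrial superoxide dismutase, rose by 0.43 ± 0.052 in the panel, in 19 of 19 lines.

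Probe sets of the same gene were compared where there was more than 1 for a gene, in a fit of 28768 single-symbol probe sets that 16 of the 19 entered. The 3 NQO1 probe sets gave the same direction in each comparison, with TK6 changes of -1.55, -1.66 and -0.79 and panel changes of 0.19, 0.13 and 0.23. Those of TXN gave panel changes of 0.12 and 0.52, and TK6 changes of -0.14 and 0.59, neither TK6 value past the threshold. Those of GCLC gave panel changes of -0.030 and 0.098, neither past it. The 3 GCLM probe sets gave panel changes of 0.068, 0.029 and -0.051 and MT1 changes of -0.14, 0.17 and -0.27, and none of these 6 values passed. A dimmer NFE2L2 probe set gave a panel change of -0.20 but a TK6 change of -0.33, opposite in sign to the 0.29 of the brighter one, and neither TK6 value passed. Both GCLC probe sets were lower in untreated MT1 than in TK6, at -1.56 and -1.14.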

How the data were processed

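The authors deposited linear intensities with a floor of 16, made with PLIER per the submitters' processing notes, whose version is not given in the sources used here. Probe sets were named with the platform annotation, and those with several symbols or none were left out. Intensities were transformed as log2(value + 16) and quantile normalised. From all arrays, 22 MNNG arrays were set aside where the cre pair differed by over 2 log2 units. Each gene was represented by its probe set of highest mean, and the dimmest 30% of genes were left out.

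Genes were tested with limma (trend, Benjamini-Hochberg over 13842 genes, called at an adjusted p below 0.05). In the panel, duplicates were averaged with the line as a block. TK6, MT1 and their differences were contrasts over the groups of line and treatment that kept an array. Differences between lines used F tests. Fold changes are on the log2(value + 16) scale and understate those of dim genes. NFE2L2 relations used 100000 permutations.

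All 9 members are named. From each list, up to 6 called genes with the largest change in the panel and up to 4 in TK6 and MT1 could be named, and for each member its 3 nearest patterns. The members and lists were chosen with earlier results of these data known. Alternatives covered pseudocounts, scaling, filters, probe set choice, all arrays, blocks and left-out lines or arrays. Scripts were tested on simulated data. Tools were R 4.3.3, limma 3.58.1, the data.table package (1.17.8), Python 3.11.15, matplotlib 3.10.9 and pandas 2.3.3. Promoters are from RefSeq (GRCh38.p14).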

Additional observations from a re-analysis of the deposited data

Results flagged for a closer look

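The change of NQO1 with MNNG differed between MT1 and TK6 by a test of the difference itself: the MT1 change minus the TK6 change was 1.38 ± 0.23 (log2, SE, adjusted p = 7.49e-06, limma), with changes of -0.17 in MT1 and -1.55 in TK6. The change of PRDX1 also differed, by -0.85 ± 0.18 (adjusted p = 0.000252, limma), with changes of 0.0096 in MT1 and 0.86 in TK6. MT1 had 1 MNNG array, and 24.7% of all genes differed in the same test.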

How the results depend on the processing

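Most values of the 9 genes kept their direction and their side of the threshold, but several counts of called genes did not. On values as deposited, 3 genes were called in the panel, 0 in MT1 and 3 between untreated MT1 and TK6 (36.6%, 0.715% and 11.5% of all genes), and 0 relations with NFE2L2 passed by Pearson's r. Centred on array medians these were 2, 1 and 2 (23.8%, 0.484% and 14.9% of all genes) and 5, and the F test of responses called 1 (NFE2L2); TXN (-0.040) and PRDX1 (-0.11) turned direction in the panel, and the cause was not tested. With a 50% filter 4 genes differed between the MT1 and TK6 responses (33.2% of all genes), since fewer genes were tested. The mean of all probe sets left 0 relations past the threshold by Pearson's r, as did leaving out 2 lines, where HMOX1 still passed by Spearman's rho (-0.65). With all arrays kept, 0 genes were called in TK6, 0 in MT1, 0 for the difference of responses and 0 between the untreated lines (3.35%, 0.101%, 0.91% and 1.29% of all genes), where the shared spread includes the set-aside arrays. In the panel GCLC (0.57), TXNRD1 (0.17), TXN (-1.34) and PRDX1 (-0.45) then reversed. With no line block 1 gene was called in the panel (15.1% of all genes). In a model of only the TK6 and MT1 arrays 0 were called in MT1 and 3 between the untreated lines (0% and 16.1% of all genes). The beta-actin covariate, added later, left 1 call in the panel (2.77% of all genes).

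Leaving out single lines or replicates gave 1 to 5 calls in the panel (1 without replicate 1, 8.58% of all genes), 0 to 1 in the F test of responses, 9 to 9 in that of untreated levels, 1 to 1 for NFE2L2 relations, 5 to 6 in TK6, 1 to 2 in MT1 (1 without the first untreated MT1 array), 2 to 3 for the difference of responses and 3 to 5 for untreated MT1 minus TK6 (3 without the second untreated MT1 array). With the replicate block the panel had 4 calls, TK6 6, the difference 3 and the F test of responses 1. Samples with the same number deviated with correlations of -0.62 to 0.14 over 9 lines, 2 of them over 0.1, so the numbers were not taken to pair the samples. Values at the floor have no order: HMOX1 was at the floor on 1 untreated and 1 MNNG array of line 14.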

Other observations

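Of the subunits of the phagocyte NADPH oxidase, which makes superoxide, CYBB, NCF1 and NCF4 were near the floor in untreated MT1 and TK6. CYBA, another subunit, was not, at 10.38 in MT1 and 10.37 in TK6, inside the panel's 10.07 to 10.63. CYBB had a level of 5.21 in MT1 and 5.26 in TK6, against 5.63 to 8.93 in the 24 panel lines. NCF4 was at 5.45 in MT1 and 5.42 in TK6, against 6.93 to 9.21 in the panel. NCF1 was at 5.59 in MT1 and 5.41 in TK6, against 9.12 to 10.80 in the panel. In CYBB, NCF1 and NCF4 both lines lay below every panel line, as 10.2% of all genes did. With MNNG, in the panel, CYBB fell by 0.68 ± 0.063 (lower in 18 of 19 lines) and NCF4 fell by 0.23 ± 0.050 (lower in 15 of 19).

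Of the 99 tested genes of the 7 lists, 15 lay above every panel line in both MT1 and TK6 (15.2%, against 9.87% of all genes) and 14 below (14.1%, against 10.2%). KEAP1, named after its values were seen, was among the 15, at 8.67 in MT1 and 8.48 in TK6, against 7.40 to 8.07 in the panel.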
